A study of Mus musculus with 141 samples.

Results

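Libraries of inguinal white adipose tissue (iWAT, the main subcutaneous fat pad of the mouse) that stood at the high and at the low end of *Fos* expression were compared across all other genes. Within each sex, libraries were ranked by the level of *Fos* in TPM, transcripts scaled for their length to the same total in every library, and the 25% at the top and the 25% at the bottom were kept. This gave 16 high-*Fos* and 16 low-*Fos* libraries of 65 ranked female libraries, and 18 and 18 of 73 ranked male libraries, so 68 libraries of all 67 female and 74 male ones. The mice were inbred strains of the Hybrid Mouse Diversity Panel (HMDP), with 1 library per strain and sex. Both groups and both sexes had the same handling, namely chow to 8 weeks of age, 8 weeks on a diet rich in fat and sucrose (HF/HS) and a fast of 4 h before tissue collection. The groups therefore differ in no treatment and were formed by *Fos* alone, and p-values measure the spread between mice, most of different strains. Both libraries of 6 strains were in the high group and both of 6 others in the low group. The test took these pairs as independent, although the strain correlation estimated by limma was 0.383. Each group held 28 strains and the 68 libraries held 54. The 3 libraries from mouse numbers 443, 886 and 1269 were left out: the summed level of Y-linked genes was 1078 and 382.2 CPM (counts scaled to library size, without regard to gene length) in the 2 labelled female and 7.85 CPM in the 1 labelled male, against 5.45 to 32.8 CPM in the ranked female and 176.6 to 535.5 CPM in the ranked male libraries.

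*Fos* encodes a leucine zipper protein that pairs with JUN proteins to form AP-1, a transcription factor. It is the classic immediate early gene: its transcription starts within minutes of a growth factor, calcium, cAMP or stress signal, from serum response factor (SRF) and CREB bound at its promoter, without new protein synthesis, and its mRNA is lost again soon after. Other immediate early genes, such as *Egr1*, *Junb* and *Atf3*, are induced by the same kinase cascades, and feedback inhibitors such as the DUSP phosphatases and SPRY proteins then end the signal. In adipose tissue these genes can be expressed in adipocytes, endothelial cells, fibroblasts, smooth muscle cells and macrophages.

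Because the libraries were selected on it, *Fos* itself (ENSMUSG00000021250, chr12:85473890-85477273, plus strand) is given only as a description. In female libraries *Fos* ran from 19.1 to 38.7 TPM with a median of 22.1 in the high group and from 3.73 to 8.38 TPM with a median of 6.84 in the low group. In male libraries it ran from 13.5 to 36.9 TPM (median 18.4) and from 0.728 to 5.02 TPM (median 3.25). The ratio of medians was 3.23 in females and 5.66 in males. The male groups lay lower than the female ones at both ends, so that a male library at 13.5 TPM counted as high while a female library at 18.96 TPM did not. The last low and first middle library were at 8.38 and 8.41 TPM in females and at 5.02 and 5.18 TPM in males, and the last middle and first high library at 18.96 and 19.07 TPM in females and at 13.44 and 13.47 TPM in males. The ranking has no gap at these limits, and the groups are the ends of a continuous range. *Fos* was read from 53 to 1384 estimated counts per library, so that counting error is small beside these ratios.

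**Figure D1:**
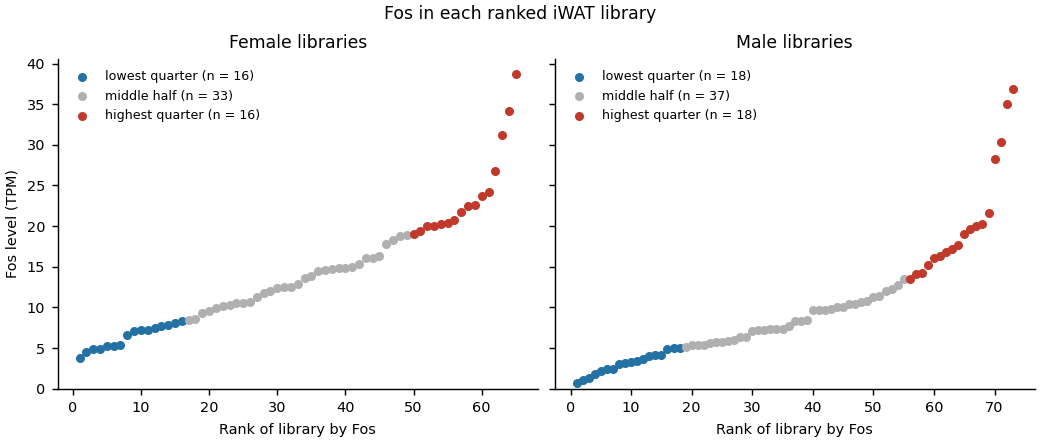
*Fos* level in TPM of each ranked iWAT library against its rank, with female libraries on the left and male libraries on the right. Blue points are the low-*Fos* and red points the high-*Fos* group, and grey points the libraries between them; the curve has no step at either limit, and the steepest part lies among the highest libraries, which reach 38.7 TPM in females and 36.9 TPM in males.

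The share of counts in mitochondrially encoded genes was lower in high-*Fos* libraries, with medians of 8.53% against 11.85% in females and 7.90% against 10.95% in males. Since TPM sums to a fixed total, a large mitochondrial share lowers the TPM of all other genes. Ranking by *Fos* CPM after TMM scaling kept 14 of 16 female low, 13 of 16 female high, 16 of 18 male low and 16 of 18 male high libraries. Total counts ran from 11747373 to 78562648 among the 68 libraries, and the medians of the high and low groups were 30738553 and 30070741. Of 3 libraries that stood apart, the shallowest was the male BXA24/PgnJ library (high group), the deepest the male CXB11/HiAJ library (low group), and the third, female BXD79/RwwJ (low group), had 1891 CPM of the muscle creatine kinase gene *Ckm* where the next highest had 71.99. Without all 3, *Herpud1*, *Plin1*, *Lipe*, *Retn*, *Cdk1* and *Pde6a*, described below, were no longer called by edgeR.

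The promoter of *Fos* and those of the immediate early genes called higher that hold a searched motif are shown to place the sequence beside the expression values. The windows are the 250 bases before a RefSeq start site on GRCm38.p6, written 5′ to 3′ on the gene's strand, and capitals mark a match to the cAMP response element (CRE, TGACGTCA) or, in *Egr2*, to the CArG box that SRF binds. The AP-1 element (TGACTCA) was also searched, all on both strands. None of the 3 motifs is in the *Fos* window. Only exact matches within 250 bases were sought, so sites farther upstream or with other letters were missed. The result does not show that the *Fos* promoter lacks SRF or CREB sites.
Fos, chr12:85473640-85473889: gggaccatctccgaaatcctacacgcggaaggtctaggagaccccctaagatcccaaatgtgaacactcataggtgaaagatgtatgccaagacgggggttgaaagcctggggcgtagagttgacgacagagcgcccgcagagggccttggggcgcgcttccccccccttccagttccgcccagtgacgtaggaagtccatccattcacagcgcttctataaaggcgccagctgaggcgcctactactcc
Plk2, chr13:110394794-110395043: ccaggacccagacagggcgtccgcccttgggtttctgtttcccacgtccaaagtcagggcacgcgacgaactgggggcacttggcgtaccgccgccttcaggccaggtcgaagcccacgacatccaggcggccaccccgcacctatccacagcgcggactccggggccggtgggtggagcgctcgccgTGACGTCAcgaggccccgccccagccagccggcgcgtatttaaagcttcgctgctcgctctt
Dusp1, chr17:26508473-26508722 (minus strand): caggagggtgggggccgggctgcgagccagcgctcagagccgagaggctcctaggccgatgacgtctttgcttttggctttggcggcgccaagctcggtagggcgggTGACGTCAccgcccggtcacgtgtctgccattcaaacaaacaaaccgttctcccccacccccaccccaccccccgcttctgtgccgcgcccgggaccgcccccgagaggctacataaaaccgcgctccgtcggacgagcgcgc
Errfi1, chr4:150854820-150855069: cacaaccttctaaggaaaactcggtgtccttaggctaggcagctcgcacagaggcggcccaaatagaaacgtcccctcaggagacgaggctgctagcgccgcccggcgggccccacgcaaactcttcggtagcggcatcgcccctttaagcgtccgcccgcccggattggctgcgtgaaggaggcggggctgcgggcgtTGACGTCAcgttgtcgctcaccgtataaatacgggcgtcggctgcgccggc
Egr2, chr10:67537316-67537565: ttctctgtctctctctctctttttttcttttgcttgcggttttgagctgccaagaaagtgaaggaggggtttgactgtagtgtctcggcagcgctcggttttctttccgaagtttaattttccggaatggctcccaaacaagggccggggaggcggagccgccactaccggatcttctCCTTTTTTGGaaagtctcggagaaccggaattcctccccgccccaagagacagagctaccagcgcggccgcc

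In these windows the CRE begins 62 bases before the start of *Plk2*, 143 before that of *Dusp1* and 51 before the second listed start of *Errfi1*, and the CArG box of *Egr2* begins 72 bases before the start shown, while those windows of its other listed starts that hold a match, not printed here, share a different CArG box. The CRE was present at 1.77% of the 27025 genes with a listed promoter and at 2.66% of the tested genes with one, and at 3 of the 17 immediate early genes that were called higher and had a promoter (17.6%) and 3 of 35 that were not called (8.57%). The AP-1 element, present at 5.16% of all genes, was in none of those 17 and in 1 of the 35 not called (2.86%), and the CArG box, at 1.62% of all genes, was in 1 of the 17 (5.88%) and 3 of the 35 (8.57%). *Egr1*, *Ccn2*, *Sik1*, *Fosl1*, *Rgs1*, *Cebpd* and *Spry4* were also called higher but had no listed promoter and were not searched. Among all genes called higher, 99 of 1772 (5.59%) held the AP-1 element, against 59 of 1623 (3.64%) of those called lower and 4.48% of genes tested. The CRE was in 2.43% and 2.65% of the same genes, and the CArG box in 2.09% and 0.924%, against 1.47% of genes tested. These matches describe letters in a short window and say nothing of binding.

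Across 17561 genes tested with edgeR, adjusting for sex, 2388 were higher in high-*Fos* libraries (13.6% of genes tested) and 2163 were lower (12.3%), at a Benjamini-Hochberg adjusted p under 0.05. Most differences were small: of 4217 called genes with a mean of at least 1 CPM, 218 differed by more than 2-fold, 91 of them downward, and for no gene were the 34 high and 34 low libraries wholly separate. The median log2 fold change over all genes was -0.02. The balance of calls depends on the scale. With library totals in place of TMM scaling 4027 genes were higher and 983 lower, and with limma on log2(TPM + 1), where the median of all genes moved to 0.23, 9703 were higher and 247 lower. Fold changes below are from the TMM scale. These percentages are the background for every list below, all of which were chosen with results of these data known.

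Immediate early genes other than *Fos* were called in the same direction as *Fos* or not at all. Of 70 tested genes in 4 lists, 24 were higher and 0 were lower by edgeR (31 and 2 at an unadjusted p under 0.05; DESeq2 called 25 and 0, limma-voom 29 and 0), with a median log2 fold change of 0.18 and *Egr4* not tested. Of these genes 7 were called higher in female libraries alone, where 4.96% of all genes were, and 22 in male libraries alone (12.4% of all genes). On the log2(TPM + 1) scale 53 were, and 55.3% of all genes. Among partners and relatives of FOS in AP-1, 6 of 9 were higher (*Atf3*, *Fosb*, *Fosl1*, *Fosl2*, *Jun* and *Junb*), with a list median of 0.37. *Jund*, which is known as the constitutive JUN protein, was not called (log2 fold change -0.03, adjusted p = 0.80), nor were *Maff* (0.28, adjusted p = 0.087) and *Batf* (-0.35, adjusted p = 0.32).

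*Atf3* (chr1:191170296-191218039), a stress-induced ATF/CREB family factor, differed most of the 70 genes. It ran from 4.23 to 89.6 CPM with a median of 14.9 in high-*Fos* libraries and from 1.55 to 12.5 CPM with a median of 3.98 in low-*Fos* libraries. All 34 high libraries lay above the low median and 20 above every low library, although the ranges overlapped. The log2 fold change was 1.96 ± 0.24 (SE, edgeR adjusted p = 2.7e-08, n = 34 and 34). In TPM, the median of *Atf3* in the high group was 16.5, near that of *Fos* there, and 3.36 in the low group. Within sexes the log2 fold change was 1.08 in females and 2.70 in males.

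*Fosb* (chr7:19302696-19310051), the closest relative of *Fos* and also an immediate early gene, ran from 1.54 to 17.5 CPM (median 3.01) in high-*Fos* and from 0.562 to 4.80 CPM (median 1.68) in low-*Fos* libraries. At the top, 8 high libraries lay above all low ones, and the other high libraries lay within the range of the low group. Its log2 fold change was 1.24 ± 0.20 (edgeR adjusted p = 7.64e-06). *Fosl2*, which encodes FRA2, was much more abundant, at medians of 69.6 and 42.04 CPM, and differed less (0.60 ± 0.11, adjusted p = 3.33e-05). *Jun* had medians of 64.5 and 50.7 CPM (0.37 ± 0.09, adjusted p = 0.0018) and *Junb* of 25.4 and 18.9 CPM (0.36 ± 0.12, adjusted p = 0.0226). *Fosl1*, which encodes FRA1, was called higher at a level too low to describe closely, with medians of 0.297 and 0.184 CPM, where 3 counts in a library of median depth correspond to 0.0991 CPM.

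Of the zinc finger EGR genes and the NR4A orphan receptors, 3 of 7 were higher, with a list median of 0.28. *Egr1*, induced by the same SRF and ELK factors as *Fos*, ran from 21.3 to 173 CPM (median 53.1) in high-*Fos* and from 14.3 to 56.3 CPM (median 29.6) in low-*Fos* libraries. Its log2 fold change was 0.91 ± 0.13 (edgeR adjusted p = 1.17e-06), with 15 high libraries above all low ones, and it was close in both sexes (0.82 in females, 0.96 in males). *Egr2*, whose CArG box is printed above, had medians of 7.003 and 3.01 CPM (1.06 ± 0.21, adjusted p = 0.0001), but the highest single library, at 22.5 CPM, was in the low group. *Nab2*, a corepressor that binds EGR proteins and is induced by them, was higher by 0.28 ± 0.08 (adjusted p = 0.00521). The NR4A receptors, which respond quickly to cAMP in many cells, were not called: *Nr4a1* was at 0.28 (adjusted p = 0.0512), *Nr4a2* at -0.24 (adjusted p = 0.354) and *Nr4a3* at -0.22 (adjusted p = 0.467).

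The broader list of 41 immediate early genes held 9 that were higher, and its median of 0.12 lay nearest to that of all genes. Those with secreted products were *Ccn1* and *Ccn2*, matricellular proteins that are also targets of YAP and SRF. *Ccn2* ran from 5.45 to 69.7 CPM (median 21.97) in high-*Fos* and from 3.45 to 35.7 CPM (median 11.1) in low-*Fos* libraries, a log2 fold change of 0.97 ± 0.15 (edgeR adjusted p = 1.38e-06), and *Ccn1* had medians of 43.95 and 27.1 CPM (0.79 ± 0.19, adjusted p = 0.00109). The groups overlapped for both. *Plk2*, a polo-like kinase, was higher by 0.64 ± 0.13 (adjusted p = 0.000128), *Sik1*, a salt-inducible kinase that restrains CREB coactivators, by 0.52 ± 0.10 (adjusted p = 0.000113), and *Ier5l* by 0.43 ± 0.09 (adjusted p = 0.00044). *Rgs1*, a regulator of G protein signalling best known in leukocytes, was higher by 0.92 ± 0.32 (adjusted p = 0.0259), and *Npas4* was called at medians of only 0.921 and 0.575 CPM. *Klf6* and *Cebpd*, 2 transcription factors with roles in adipogenesis, were higher by 0.28 and 0.36. Widely used members of the same response were not called, among them *Ier2* (0.17, adjusted p = 0.184), *Zfp36* (0.04, adjusted p = 0.772), *Myc* (0.18, adjusted p = 0.517), *Klf4* (0.26, adjusted p = 0.0685), *Klf2* (-0.28, adjusted p = 0.181) and *Btg2* (0.11, adjusted p = 0.264).

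The feedback inhibitors of MAP kinase signalling, which are induced by the pathway they restrain, were higher for 6 of 13 with a list median of 0.21. *Spred1*, a membrane-bound inhibitor of RAS, varied little among libraries and had a median of 78.1 CPM with a lowest library at 51.98 CPM in the high group, against 39.2 to 83.7 CPM (median 59.99) in the low group, with 10 high libraries above all low ones (log2 fold change 0.40 ± 0.06, edgeR adjusted p = 4.22e-06). *Errfi1*, which blocks EGF receptor kinases, had medians of 35.01 and 25.2 CPM (0.61 ± 0.11, adjusted p = 1.43e-05). *Dusp1*, a nuclear phosphatase of p38, JNK and ERK, had medians of 57.4 and 33.6 CPM (0.51 ± 0.13, adjusted p = 0.00203), with 0.88 in males and 0.07 in females and no called interaction. *Spry1*, *Spry4* and *Dusp6* were higher by 0.35, 0.44 and 0.21. Of the remaining 7, *Dusp2*, which is best known in lymphocytes, was at -0.82 (adjusted p = 0.196).

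**Figure D2:**
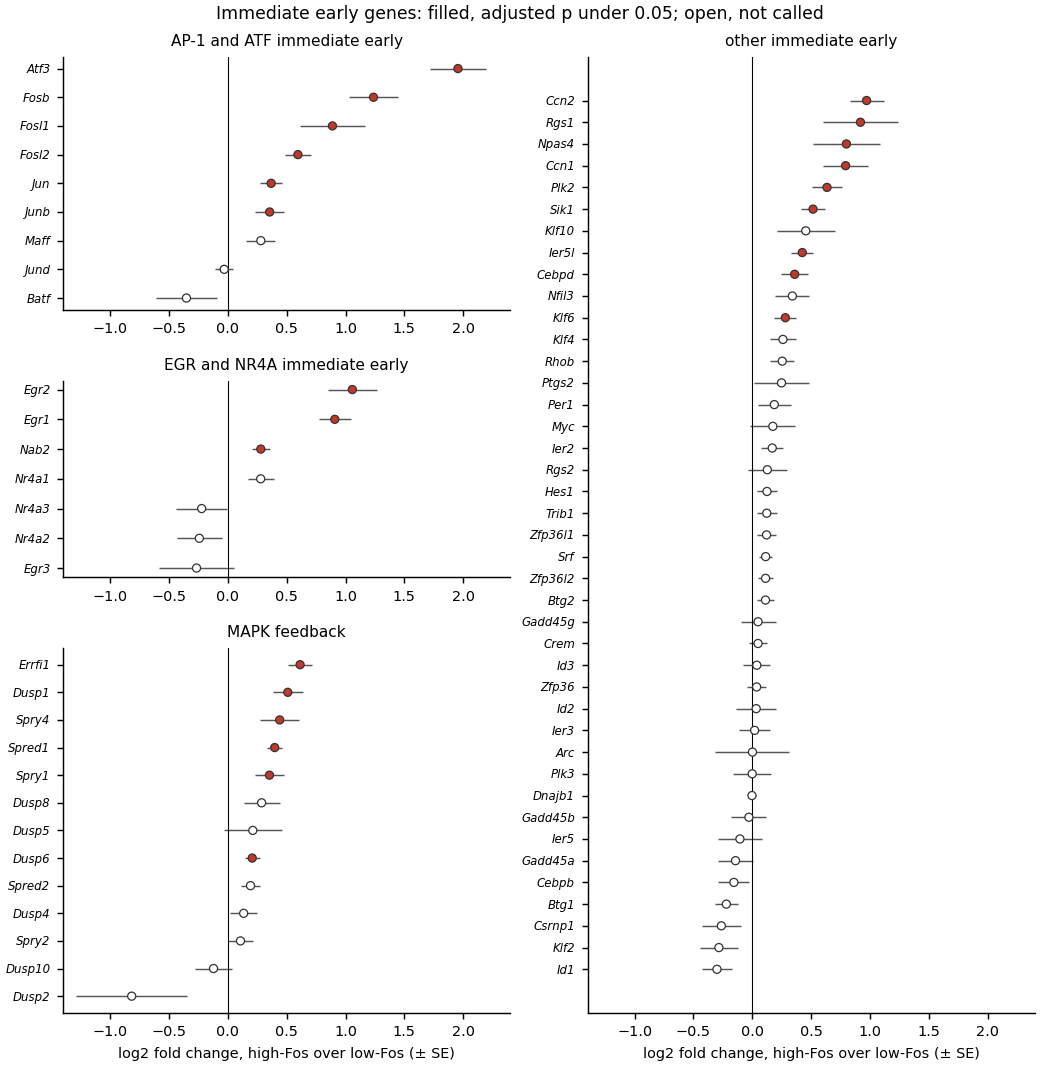
Log2 fold change, high-*Fos* over low-*Fos* libraries, of each tested immediate early gene in 4 lists, with bars of 1 SE; filled points have an edgeR adjusted p under 0.05. All 24 filled points are above 0 and *Atf3* at 1.96 is the highest, and 32 of the 41 points of the largest list are open.

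Receptors and ligands that can induce *Fos* were higher for 10 of 24 and lower for 2. The EGF receptor gene *Egfr* ran from 45.2 to 181 CPM (median 87.4) against 28.7 to 130.5 CPM (median 56.9), a log2 fold change of 0.55 ± 0.11 (edgeR adjusted p = 9.31e-05), and 32 of 34 high libraries lay above the low median. *Erbb2* (0.55), the EGF family ligand gene *Hbegf* (0.86, but 0.42 without the male C3H/HeJ library at 72.1 CPM), the angiotensin receptor gene *Agtr1a* (0.59), *Edn1*, which encodes endothelin (0.43), and the PDGF ligands and receptors *Pdgfa* (0.27), *Pdgfb* (0.35), *Pdgfra* (0.31) and *Pdgfrb* (0.44) were higher as well, as was *Igf1r* (0.21). The 2 lower genes were *Adrb3*, the adipocyte β-adrenergic receptor, with medians of 110.2 and 250.2 CPM (-1.03 ± 0.24, adjusted p = 0.00077), and *Vegfa* (-0.29 ± 0.10, adjusted p = 0.0248). Of the kinases and transcription factors that lead from such receptors to the *Fos* promoter, 3 of 19 were higher and 2 lower, with a median of -0.004: *Mrtfb* (0.39), *Stat3* (0.23) and *Elk3* (0.20) were higher and *Crtc2* (-0.13) and *Map2k2* (-0.15) lower.

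Of 22 cytokine and NF-κB response genes, 7 were higher and 0 were lower, and the list median was 0.02. The 7 were *Lif*, an IL-6 family cytokine (0.83 ± 0.14, edgeR adjusted p = 6.22e-06), the chemokines *Ccl2* (1.01), *Ccl7* (0.85), *Cxcl1* (0.68) and *Cxcl2* (0.98), the endothelial selectin *Selp* (0.43), and *Tnfaip2* (0.64 ± 0.09, adjusted p = 1.24e-06). The NF-κB feedback genes were not called, with *Nfkbia* at -0.11 (adjusted p = 0.443) and *Tnfaip3* at -0.07 (adjusted p = 0.806), nor was *Tnf* (-0.23, adjusted p = 0.513). *Il6* was below the count filter.

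Lists of other stress responses held called genes in both directions. Heat shock genes had 2 of 14 higher and 3 lower: the inducible chaperones *Hspa1a* (0.60 ± 0.15, edgeR adjusted p = 0.00128) and *Hspa1b* (0.60), a near-identical pair whose counts may be split between them, were higher, while the mitochondrial chaperones *Hspd1* (-0.34, but 0.02 on the log2(TPM + 1) scale) and *Hspe1* (-0.30) and the cochaperone *Chordc1* (-0.13) were lower. The unfolded protein response had 1 of 13 higher, *Hspa5* (0.21), and 1 lower, *Herpud1* (-0.14, but 0.18 on the log2(TPM + 1) scale). Hypoxia genes had 3 of 14 higher, among them *Hilpda*, a lipid droplet inhibitor of lipolysis (0.77 ± 0.17, adjusted p = 0.000598), and 3 lower, among them the glycolytic gene *Pgk1* (-0.40, but 0.009 with depth and mitochondrial share in the model). Glucocorticoid and metallothionein genes had 3 of 11 higher (*Sgk1* 0.49, *Ddit4* 0.46, *Cdkn1a* 0.55) and *Pdk4*, a fasting-induced brake on pyruvate oxidation, lower (-0.94 ± 0.28, adjusted p = 0.0086, but 0.13 with depth and mitochondrial share in the model), whereas the glucocorticoid target *Fkbp5* was at 0.11 (adjusted p = 0.716).

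Extracellular matrix genes were higher almost throughout, with 18 of 19 called and a list median of 0.62. *Thbs1* (chr2:118111876-118127133), which encodes thrombospondin 1 and is itself induced by serum, ran from 41.4 to 1376 CPM (median 163) in high-*Fos* and from 14.1 to 330.2 CPM (median 73.7) in low-*Fos* libraries, a log2 fold change of 1.36 ± 0.25 (edgeR adjusted p = 3.12e-05). The fibrillar collagen gene *Col1a1* had medians of 1114 and 696 CPM (0.74 ± 0.14, adjusted p = 4.96e-05), the fibronectin gene *Fn1* of 566 and 244 CPM (0.88 ± 0.21, adjusted p = 0.00089), and the membrane metalloproteinase gene *Mmp14* of 93.8 and 74.3 CPM (0.56 ± 0.09, adjusted p = 4.66e-06). For each of these 4 the ranges overlapped and 30 or 31 of 34 high libraries lay above the low median. *Timp1* was the member not called (0.64, adjusted p = 0.077). In male libraries alone 18 of the 19 were higher (12.4% of all genes) and in female libraries alone 1 (4.96% of all genes), with list medians of 0.80 and 0.38 and no called interaction. With depth and mitochondrial share in the model 10 of the 19 were higher, and 1183 of all 17561 genes.

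**Figure D3:**
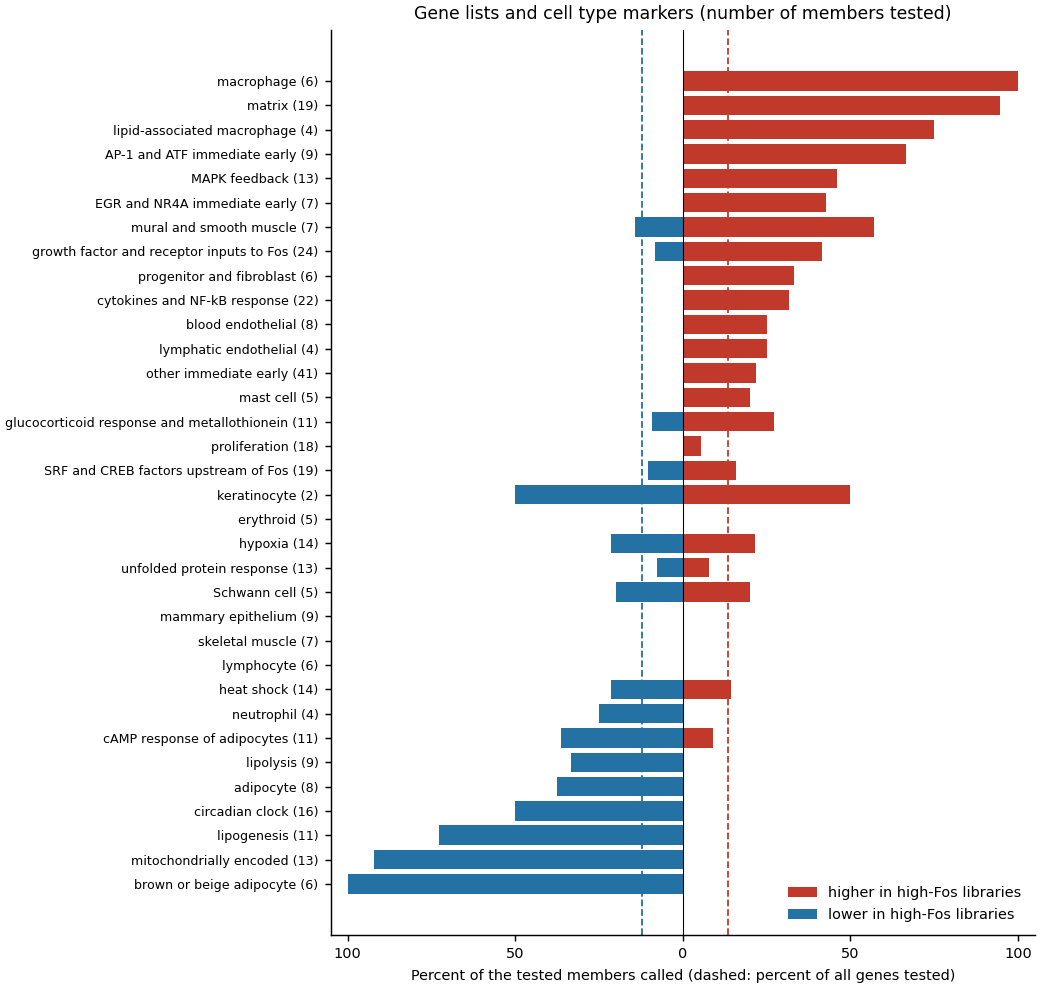
Percent of the tested members of each gene list and cell type marker list called higher (red, to the right) and lower (blue, to the left) in high-*Fos* libraries, with the number tested in brackets and dashed lines at the 13.6% and 12.3% of all genes. All 6 macrophage markers and 18 of 19 matrix genes were higher, and all 6 brown or beige adipocyte markers and 12 of 13 mitochondrially encoded genes were lower.

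Markers of macrophages were higher in high-*Fos* libraries, in all 6 of 6 genes with a list median of 0.56. *Cd68*, a lysosomal protein of macrophages, ran from 8.95 to 259 CPM (median 48.1) against 10.3 to 81.5 CPM (median 23.3), a log2 fold change of 1.21 ± 0.20 (edgeR adjusted p = 6.13e-06). *Adgre1*, which encodes F4/80, ran from 11.2 to 200.8 CPM (median 49.6) against 4.76 to 42.4 CPM (median 22.4), and 20 high libraries lay above all low ones (1.22 ± 0.20, adjusted p = 5.32e-06). Markers of lipid-associated macrophages were higher for 3 of 4: *Trem2* (1.92 ± 0.39, adjusted p = 0.000177), *Gpnmb* (2.43 ± 0.49, adjusted p = 0.000124) and the less specific tetraspanin *Cd9* (0.81 ± 0.10, adjusted p = 2.68e-08), and *Spp1* was at 0.57 (adjusted p = 0.422). In female libraries alone, where 4.96% of all genes were higher, 0 of the 6 macrophage markers were called by edgeR, and in male libraries alone (12.4% of all genes) 6 were. With depth and mitochondrial share in the model, where 1183 of 17561 genes were higher, 2 of the 6 were called. In bulk tissue, a difference in the number of such cells cannot be told apart from one in RNA per cell.

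The 10 largest rises included *Gpnmb*, given above, and 9 other genes. *Itgad*, an integrin subunit of macrophages, ran from 0.235 to 113.7 CPM (median 6.85) in high-*Fos* and from 0.217 to 11.2 CPM (median 0.892) in low-*Fos* libraries (log2 fold change 3.33 ± 0.52, edgeR adjusted p = 3.46e-06). *Mmp12*, the macrophage elastase, ran from 4.90 to 881 CPM (median 99.2) and from 2.84 to 119.5 CPM (median 9.01), with 31 of 34 high libraries above the low median (2.75 ± 0.41, adjusted p = 1.62e-06). *Atp6v0d2*, a proton pump subunit of macrophages and osteoclasts, had medians of 18.4 and 3.02 CPM (2.68 ± 0.37, adjusted p = 3.5e-07), and *Tph2*, a tryptophan hydroxylase best known in neurons, of 38.4 and 1.83 CPM (2.83 ± 0.58, adjusted p = 0.00016). The others were the transforming growth factor family ligand *Gdf3* (2.90, but 2.02 without the male CE/J library), *Tm4sf19* (2.89), the myosin gene *Myh15* (2.86), the coagulation factor gene *F7* (2.31) and *Pde6a* (2.08), of which *Gdf3*, *Myh15* and *Pde6a* had medians under 1 CPM in both groups. *Pde6a* rests on the male BXA24/PgnJ library with 243 CPM: its medians were 0.786 and 0.932 CPM, and without that library the log2 fold change was -0.25 (edgeR adjusted p = 0.198).

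Of the markers of other cell types, those of mural and smooth muscle cells had 4 of 7 higher, with *Acta2*, the smooth muscle actin gene, at medians of 223 and 97.3 CPM (0.98 ± 0.15, edgeR adjusted p = 3.5e-06), *Myh11* (0.61), *Tagln* (0.58) and *Notch3* (0.47), and *Des* lower (-0.73, but -0.32 without the female BXD79/RwwJ library). Blood endothelial cells had 2 of 8 higher (*Pecam1* 0.23, *Emcn* 0.24), progenitors and fibroblasts 2 of 6 (*Cd34* 0.50, *Pdgfra* 0.31), lymphatic endothelial cells 1 of 4 (*Pdpn* 0.49) and mast cells 1 of 5 (*Kit* 0.63). Lymphocyte markers were called for 0 of 6 by edgeR, with log2 fold changes from -1.15 to -0.94 and adjusted p from 0.0605 to 0.285, although their summed level had a median of 15.2 CPM in high-*Fos* and 290.4 CPM in low-*Fos* libraries, with ranges of 2.88 to 624 and 4.36 to 808 CPM. By sex, the high and low medians were 12.3 and 393.1 CPM in males and 80.1 and 70.7 CPM in females. Erythroid markers were called for 0 of 5 and the mammary and skeletal muscle markers for 0 of 9 and 0 of 7. Of 2 keratinocyte markers tested, *Dsg1a* was higher (0.97) and *Krt10* lower (-0.62, but -0.18 with adjusted p = 0.0795 without the female LP/J library, and 0.02 on the log2(TPM + 1) scale), with *Krt1*, *Lor* and *Flg* below the filter. Of 4 neutrophil markers *S100a9* was lower (-1.48, but -0.86 with adjusted p = 0.15 without the male NZB/BlNJ library, and 0.05 on the log2(TPM + 1) scale) and 3 were not called. The summed neutrophil markers had medians of 18.4 CPM in the high and 9.65 CPM in the low group, with ranges of 5.02 to 49.2 and 1.85 to 200.1 CPM. Of 5 Schwann cell markers *Sox10* was higher (0.65) and *S100b* lower (-0.62). *Sox10*, also a mammary epithelial gene, was at 1.39 in females and -0.07 in males, with a called interaction. The summed macrophage markers had medians of 521 and 330.5 CPM and ranges of 176 to 1118 and 133.9 to 724, the mural markers medians of 1211 and 803 and ranges of 583 to 2065 and 455 to 1729, and the blood endothelial markers medians of 1323 and 1073 and ranges of 580 to 2492 and 562 to 1887, and no marker of any list was at 0 in all 68 libraries. With the endothelial, macrophage and adipocyte marker levels in the model, 21 immediate early genes were called higher, *Dusp5*, *Ier2*, *Klf10*, *Myc* and *Zfp36l1* among them, which were not called without these terms, whereas *Cebpd*, *Dusp6*, *Fosl1*, *Klf6*, *Npas4*, *Rgs1*, *Spry1* and *Spry4* lost their call, and *Atf3* stood at 0.99. In that model 1364 of 17561 genes were higher, and 9 of the 19 matrix genes.

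**Figure D4:**
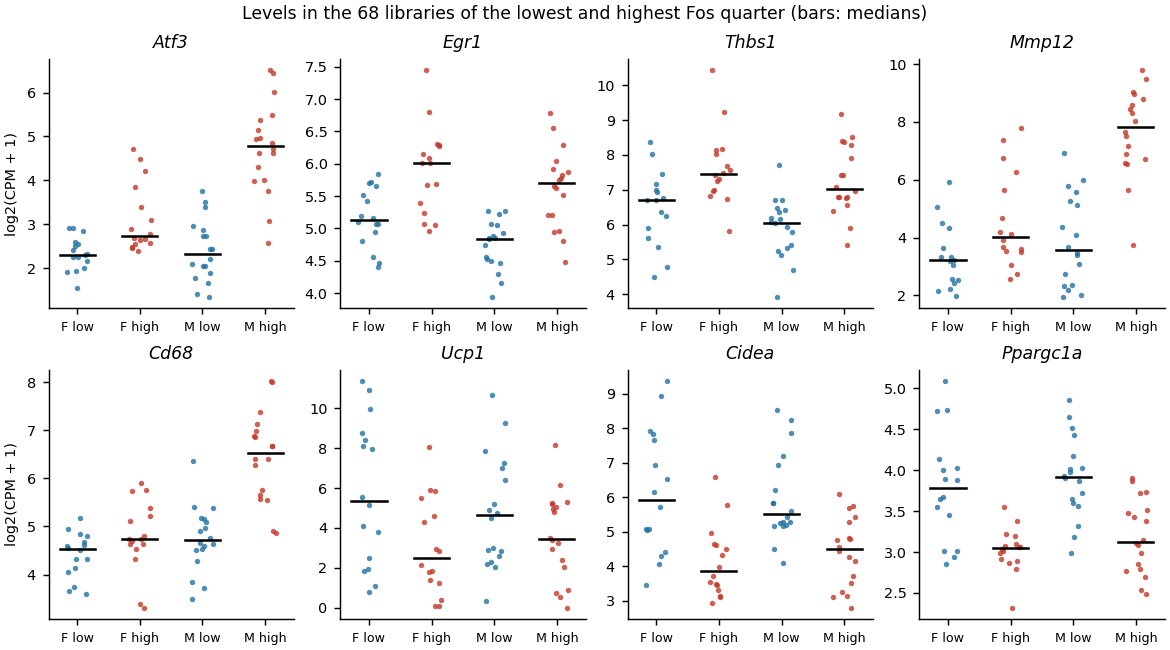
Level of 8 genes in each of the 68 libraries, as log2(CPM + 1), by sex and *Fos* group (F, female; M, male), with black bars at the medians. The median of *Mmp12* is 230.4 CPM in male high-*Fos* against 10.8 CPM in male low-*Fos* libraries and 15.4 against 8.24 CPM in females, and *Ucp1*, *Cidea* and *Ppargc1a* are lower in high-*Fos* libraries of both sexes with overlap.

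Lower in high-*Fos* libraries were, first, genes of thermogenic adipocytes, with 6 of 6 called and a list median of -2.23. *Ucp1* (chr8:83290352-83298452), the uncoupling protein of brown and beige adipocytes, ran from 0 to 291 CPM (median 7.58) in high-*Fos* and from 0.266 to 2666 CPM (median 27.3) in low-*Fos* libraries, a log2 fold change of -3.02 ± 0.74 (edgeR adjusted p = 0.00155). The mean difference rested on a minority: 7 low libraries lay above all high ones, and 11 high libraries were above the low median. *Cidea*, a lipid droplet protein of thermogenic fat, had medians of 18.6 and 49.4 CPM (-2.28 ± 0.34, adjusted p = 1.74e-06) and *Cox8b*, a cytochrome oxidase subunit of the same cells, of 14.9 and 47.6 CPM (-1.72 ± 0.27, adjusted p = 3.1e-06). *Elovl3*, a fatty acid elongase of cold-exposed brown fat, showed the smallest log2 fold change of the tested genes named here (-3.51 ± 0.67, adjusted p = 6.93e-05), but its medians were 1.144 and 1.404 CPM and 9 low libraries above all high ones carried it. It turned to 0.64 with depth and mitochondrial share in the model and to 0.37 with a fixed strain block. That fit has strain as a term and also divides libraries at the median of their sex, so the block is not the only change. It covers the 56 strains that had both libraries once the median library was left out. By limma-voom 3 of these 6 thermogenic genes were called lower (1858 of 17561 genes tested) and with strain as a random block 2 (1655 of 17561). With depth and mitochondrial share in the model 0 were (602 of 17561) and *Ucp1* was at 0.12.

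*Ppargc1a*, the coactivator that drives mitochondrial biogenesis, was among the 5 genes with the smallest p on the lower side and ran from 3.99 to 13.98 CPM (median 7.39) against 6.21 to 33.1 CPM (median 13.8). A single high library lay above the low median (log2 fold change -0.89 ± 0.13, edgeR adjusted p = 1.07e-06). The others were *H2-Ke6*, of the hydroxysteroid dehydrogenase family (-0.62 ± 0.08, adjusted p = 1.19e-07), *Pdp2*, a phosphatase that activates pyruvate dehydrogenase (-0.61 ± 0.08, adjusted p = 3.31e-07), *Coq10a*, a coenzyme Q binding protein (-0.54 ± 0.08, adjusted p = 9.95e-07), and *Ddt*, a homologue of the cytokine MIF (-0.70 ± 0.10, adjusted p = 1.13e-06). For *H2-Ke6* and *Ddt*, 0 of 34 high libraries lay above the low median. Further genes among the 10 largest falls were the fatty acid transporter *Slc27a2* (-3.38, or -2.78 without the male SJL/J library), the muscle and brown fat fatty acid binding protein *Fabp3* (-3.17, but 1.20 with depth and mitochondrial share in the model and 0.39 with the fixed strain block), the lysine catabolic gene *Aass* (-2.90, or -2.50 without the female SJL/J library), the thioesterase gene *Acot11* (-2.47, but 0.14 with the brown or beige marker levels in the model), *Aspg* (-2.37) and *Apol7b* (-2.68). For each of them 5 to 9 or, for *Slc27a2*, 11 low libraries lay above all high ones. Of the 34 high libraries, 30 lay below the low median for *Slc27a2*, 28 for *Aspg*, 26 for *Fabp3*, 24 for *Acot11*, 23 for *Apol7b* and 15 for *Aass*. *Mup11* (-2.79, but 0.58 with the fixed strain block) and *Ftl1-ps1* (-2.52, but 0.091 with DESeq2, or -1.78 without the male SJL/J library) have near-identical copies among which the counts could be divided, and are uncertain.

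Mitochondrially encoded genes were lower for 12 of 13, with a list median of -0.74. *mt-Co2*, a cytochrome oxidase subunit, ran from 4201 to 12550 CPM (median 7810) against 5254 to 39380 CPM (median 11660), and 1 of 34 high libraries lay above the low median (-0.88 ± 0.14, edgeR adjusted p = 7.35e-06). *mt-Co3* (-0.91) and *mt-Atp6* (-0.89) behaved alike, and *mt-Nd3* was the gene not called (-0.58, adjusted p = 0.0938). These genes help to set the TPM total by which libraries were ranked. With libraries ranked by TMM-scaled *Fos* CPM instead, an alternative chosen after seeing the data, 10 of 13 were lower (1498 of 17592 genes tested), and the Spearman correlation of *Fos* with the mitochondrial share went from -0.39 to -0.09 over the 65 female libraries and from -0.51 to -0.42 over the 73 male libraries, values that share the library total and are given as a description.

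Genes of fatty acid synthesis were lower for 8 of 11, with a list median of -0.68. *Mlxipl*, which encodes the glucose-responsive factor ChREBP, ran from 27.3 to 107.2 CPM (median 60.4) against 35.4 to 228 CPM (median 97.6), with 10 low libraries above all high ones (-0.66 ± 0.14, edgeR adjusted p = 0.00021). Its targets *Fasn*, *Acaca*, *Acss2*, *Me1*, *Thrsp* and *Scd1* were lower by fitted log2 fold changes of -0.74, -0.75, -0.85, -0.68, -1.06 and -0.57, and *Srebf1*, which encodes SREBP1, by -0.32. *Acly* (-0.51, adjusted p = 0.22), *Elovl6* (-0.78, adjusted p = 0.0977) and *Elovl5* (-0.08, adjusted p = 0.365) were not called. In female libraries alone 3 of the 11 were lower (5.19% of all genes) and in male libraries alone 0 by edgeR (10.4% of all genes), with list medians of -1.08 and -0.35 and no called interaction. With libraries ranked by TMM-scaled *Fos* CPM 2 of the 11 were lower (1498 of 17592 genes tested), and with depth and mitochondrial share in the model 1 was (602 of 17561). Of 9 lipolysis genes 3 were lower, the triglyceride lipase gene *Pnpla2* (-0.42), the lipid droplet coat gene *Plin1* (-0.32) and the hormone-sensitive lipase gene *Lipe* (-0.27), the last 2 of which stood at 0.06 and 0.05 on the log2(TPM + 1) scale. Of 8 adipocyte markers 3 were lower: the complement factor D gene *Cfd* had medians of 671 and 1548 CPM (-1.15 ± 0.20, adjusted p = 1.9e-05), and *Retn* (-0.45) and *Plin1* followed, whereas *Adipoq* was at -0.11 (adjusted p = 0.516) and *Lep* at 0.78 (adjusted p = 0.0614). The summed adipocyte markers had medians of 24330 and 26610 CPM and overlapped from 10110 to 41710 CPM.

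Of 11 genes of the cAMP response of adipocytes, 4 were lower (*Ppargc1a*, *Ucp1*, *Dio2* and the cAMP phosphodiesterase gene *Pde3b*, -0.35) and *Sik1* was higher. *Dio2*, which encodes a deiodinase that activates thyroid hormone, was at -1.32, but at -0.54 (edgeR adjusted p = 0.35) without the male CXB11/HiAJ library. Of 16 circadian clock genes 8 were lower and 0 were higher, with a list median of -0.25. The output factor gene *Dbp* ran from 5.08 to 70.3 CPM (median 19.8) in high-*Fos* libraries, against a lowest value of 11.6 CPM and a median of 37.8 CPM in low-*Fos* libraries, 6 of which lay above all high ones, a log2 fold change of -0.94 ± 0.21 (edgeR adjusted p = 0.000693), and the repressor genes *Nr1d1* (-0.52) and *Nr1d2* (-0.27), the output genes *Tef* (-0.39), *Hlf* (-0.44) and *Ciart* (-0.53), and *Per3* (-0.39) were among those lower. *Arntl*, which peaks opposite to *Dbp* in the daily cycle, was at 0.26 (adjusted p = 0.137) and *Per1*, which is also an immediate early gene, at 0.19 (adjusted p = 0.321). With library totals as the scale 3 of these 16 genes were lower (983 of 17561 genes tested), with strain as a random block 3 (1655 of 17561) and without the 3 libraries that stood apart 5 (2062 of 17614). In either sex alone 2 were lower (5.19% of all genes in females, 10.4% in males), and on the log2(TPM + 1) scale 1 (247 of 17561). Of 18 proliferation genes *Cdk1* alone was higher (0.40).

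The genes whose level followed that of *Fos* most closely over the 65 female and 73 male ranked libraries were not the canonical immediate early genes. Likeness was measured as the mean of the Spearman correlations within females and within males of log2(TPM + 1), over 14997 genes with a mean of at least 1 TPM. The 8 highest were *Fam129b* (0.80), the creatine transporter gene *Slc6a8* (0.78), the aminopeptidase gene *Anpep* (0.77), the kinase gene *Cdk18* (0.75), *Specc1* (0.75), *Cd9* (0.74), the ATP-gated channel gene *P2rx7* (0.74) and *Fhl2*, a LIM domain coactivator that binds AP-1 (0.73). *Atf3* ranked 13 with 0.72, *Spred1* 36 with 0.68, *Sik1* 208 with 0.60, *Jun* 232 with 0.60, *Fosb* 568 with 0.55 and *Egr1* 825 with 0.53. All values share the TPM total of their library and are given with no test.

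*Fam129b*, a pleckstrin homology protein phosphorylated downstream of ERK, also had the smallest p of all genes between the groups. It ran from 36.2 to 163 CPM (median 65.7) in high-*Fos* and from 14.7 to 51.6 CPM (median 31.6) in low-*Fos* libraries, and 28 of 34 high libraries lay above every low one (log2 fold change 1.13 ± 0.11, edgeR adjusted p = 1.4e-10). *Specc1* (1.01 ± 0.11), *Trim47* (0.61 ± 0.07), *P2rx7* (0.80 ± 0.09) and *Anpep* (1.38 ± 0.16) followed, each with 32 or 33 of 34 high libraries above the low median.

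For some genes the difference between the *Fos* groups itself differed between the sexes. The interaction of sex and *Fos* group was called for 513 of 17561 genes (2.92%), with a positive difference (male minus female log2 fold change) for 159 and a negative one for 354, and 149 of the 513 were also called in the comparison over both sexes. The count depends on the method, with 96 genes by limma-voom and 2094 with libraries divided at the median. Of the immediate early genes 2 of 70 were called, *Atf3* and *Maff*, both with a larger male value. *Trem2* had a log2 fold change of 0.50 in females and 3.14 in males, *Cd68* of 0.49 and 1.83 and *Adgre1* of 0.52 and 1.82, with interaction adjusted p of 0.0141, 0.0234 and 0.0306. The male *Fos* groups were also further apart than the female ones, as given above, and the part of that in the interaction was not tested.

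Of 9 markers of mammary epithelium, which lies within the inguinal pad, 7 had a called interaction. *Epcam*, an epithelial adhesion gene, ran from 47.7 to 299 CPM (median 168) in female high-*Fos* and from 16.1 to 139.2 CPM (median 71.9) in female low-*Fos* libraries, a log2 fold change of 1.08 (adjusted p = 0.0102). In males its level was low, with medians of 0.294 CPM in the high and 2.51 CPM in the low group, and it was lower in the high group (-2.50, adjusted p = 0.00207). The summed mammary markers had medians of 858 and 405 CPM in females. *Fcgbp*, an IgG-binding mucin-like gene, had the smallest interaction p, with female medians of 427 and 63.2 CPM and male medians of 0.251 and 1.36 CPM (interaction -4.97 ± 0.73, edgeR adjusted p = 5.34e-05). Of 7 skeletal muscle markers 5 had a called interaction, and 0 without the 3 libraries that stood apart, one of which holds the muscle signal.

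The same comparison was made among libraries that the groups do not contain. They are not an independent set. Many share a strain with a library in the groups, and all were again ranked by *Fos* TPM. Of the 70 libraries between the high-*Fos* and low-*Fos* groups, 68 were divided within each sex into 34 with higher and 34 with lower *Fos*, at medians of 15.2 and 10.6 TPM in females and 10.4 and 6.14 TPM in males. Here 388 of 17599 genes were higher (2.20%) and 535 lower (3.04%). Of these, 334 and 385 were called in the same direction in the main comparison and 16 in the opposite one, and of 4530 genes called in the main comparison and tested here, 4233 had the same sign. All 6 macrophage markers were higher, 9 of 13 mitochondrially encoded and 7 of 11 fatty acid synthesis genes lower, and 3 of 19 matrix genes higher. Of the 6 thermogenic adipocyte markers 1 was lower and of the 16 clock genes 0, with list medians of -0.86 and -0.23. Of the immediate early genes 4 of 70 were higher (*Atf3* 0.96, *Egr2* 0.77, *Spred1* 0.19 and *Ptgs2* 1.38) and 1 was lower (*Klf10*, -1.03), while *Egr1* was at -0.04 (adjusted p = 0.949), *Fosb* at 0.27 (adjusted p = 0.579) and *Ucp1* at -1.25 (adjusted p = 0.342).

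**Figure D5:**
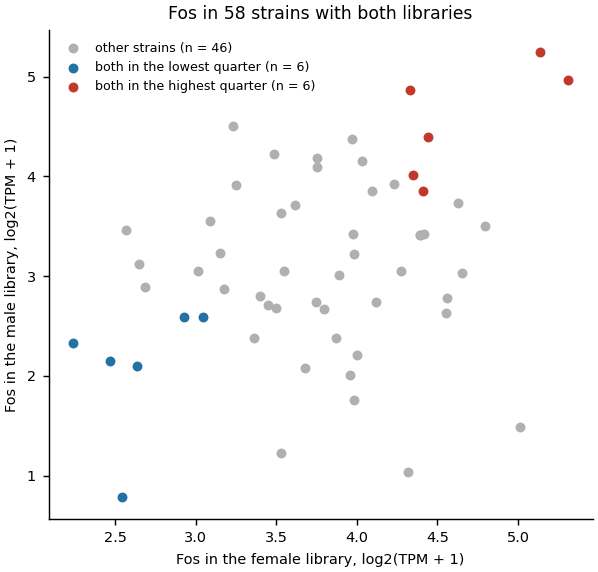
*Fos* as log2(TPM + 1) in the male library against the female library of each of the 58 strains with both. Red points are the 6 strains with both libraries in the high-*Fos* and blue points the 6 with both in the low-*Fos* group, and grey points the 46 other strains; CE/J and KK/HlJ lie at the top right, above 30 TPM in both sexes.

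*Fos* was compared between the 2 libraries of a strain. Over 58 strains, log2(TPM + 1) of the female and male library had a Pearson r of 0.333 and a Spearman rho of 0.306, given as a description with no test. Without the 2 strains farthest from the female median r was 0.26 and rho 0.246, and on the TMM-scaled log2 CPM scale r was 0.207. Among the 14 strains with both libraries in the groups, 6 were high in both sexes (BXD45/RwwJ, BXD85/RwwJ, CE/J, DBA/2J, KK/HlJ and SM/J), 6 low in both (BXD12/TyJ, BXD55/RwwJ, BXD75/RwwJ, CXB11/HiAJ, FVB/NJ and SJL/J) and 2 opposite. CE/J had 34.2 and 36.9 TPM in its female and male library and KK/HlJ 38.7 and 30.3 TPM, whereas I/LnJ had 31.3 TPM in the female and 1.795 TPM in the male library.

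The recombinant inbred families were spread unevenly over the groups. Of 12 ranked AXB libraries 6 were low and 0 high, and of 8 BXA libraries 3 were high and 0 low. Of the BXD libraries, those of the older TyJ lines had 7 low and 0 high of 18, while the RwwJ lines had 8 low and 16 high of 44. The 2 libraries of BXD24/TyJ-Cep290<rd16>/J, a line derived from a TyJ line, were counted apart, with 0 low and 1 high. The other inbred strains had 13 high and 11 low of 43. Strain and group are therefore partly confounded. With libraries divided at the median of their sex and the median library itself left out, 56 strains had both, of which 22 had their libraries in opposite parts, and with strain as a block 220 genes were higher (1.24%) and 29 lower (0.164%), with *Atf3* (1.22) and *Spred1* the immediate early genes called. In that fit 2 of the 19 matrix genes and 1 of the 6 macrophage markers were higher, and of the mitochondrially encoded, fatty acid synthesis, thermogenic and clock genes 0 were lower by edgeR.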

How the data were processed

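RNA-seq libraries (poly(A) selected, 100 bp paired-end and stranded) of 67 female and 74 male iWAT samples, 1 library per strain and sex of 82 strains, were used. Per the submitters' processing notes and the study's methods, the authors quantified transcripts with kallisto 0.46.1 against Ensembl release 97 (GRCm38/mm10) and summed them per gene with tximport. The authors deposited a table of estimated counts per gene and a table of TPM per gene, and both hold all 141 libraries and 36558 genes. Of the count values 30.2% were not whole, and they were rounded. There were 0 per-sample columns that were not used. Gene positions are from GENCODE M21 (GRCm38), which matched 35935 genes, and promoters from RefSeq (GRCm38.p6).

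*Fos* TPM ranked the libraries within sex, taken from the labels. Genes were tested on the rounded estimated counts of the 68 libraries, TMM-scaled and filtered with filterByExpr, by the quasi-likelihood test of edgeR 4.0.16 with sex as a covariate and Benjamini-Hochberg adjustment over all genes tested. Printed CPM levels were TMM-scaled over all 141 libraries. Sex differences of the contrast were tested as an interaction. No batch is given in the labels, and strain, which occurs once per sex, was left out of the model because most strains in it have 1 library. The number of counts limits precision: 3 counts correspond to 0.0991 CPM at the median depth and 0.255 CPM in the shallowest library, and these floors cover counting error only. Alternatives were DESeq2 1.42.0, limma-voom (limma 3.58.1), limma applied to the deposited TPM on a log2 scale with pseudocounts of 1 and 0.1, other scalings and filters, other divisions of the ranking, strain blocks, covariates, and libraries left out or put back. The fixed strain block used libraries divided at the median of their sex, the median library left out, in the 56 strains that then had both, and a trended dispersion. R 4.3.3, Python 3.11.15 and scipy 1.17.1 were used.

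The members and gene lists were chosen with earlier results of these data known. Values are named for immediate early genes called with a mean of at least 1 CPM, for the 10 autosomal protein-coding genes with the largest and the 10 with the smallest log2 fold change among called genes at that level, for the 5 called genes with the smallest p in each direction, for the 8 genes most like *Fos*, and for up to 3 called genes of each other list. Other genes named were chosen after their values were seen.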

Additional observations from a re-analysis of the deposited data

Results flagged for a closer look

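The difference between high-*Fos* and low-*Fos* libraries was not the same in the 2 sexes for 513 genes by the interaction test of edgeR. The genes described in the report among them are given here as male minus female log2 fold changes, with the levels behind them in CPM.

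*Atf3* had 1.59 (adjusted p = 0.0206), with medians of 26.8 against 4.06 in male and 5.65 against 3.98 in female high and low libraries. *Trem2* had 2.61 (adjusted p = 0.0141), with medians of 15.5 against 1.68 in males and 1.93 against 1.21 in females, *Cd68* had 1.32 (adjusted p = 0.0234), with 92.2 against 25.3 and 25.8 against 22.2, and *Adgre1* had 1.28 (adjusted p = 0.0306), with 25.4 to 200.8 against 6.52 to 42.4 in males and medians of 29.9 against 21.6 in females. *Fam129b* had 0.72 (adjusted p = 0.0396) and *Cdk18* 1.13 (adjusted p = 0.0314), and both rose in each sex tested alone. *Sox10*, a Schwann cell and mammary epithelial gene, had -1.49 (adjusted p = 0.0321), with female medians of 27.3 against 11.9 and male medians of 2.09 against 1.79. *Pde6a* had 3.91 (adjusted p = 0.0101), but male medians of 0.689 against 0.985, and the value rests on a male library with 242.9 CPM.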

How the results depend on the processing

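The count of genes higher in high-*Fos* libraries was within 1.5 times of 2388 under 15 of 22 alternatives and that of genes lower within 1.5 times of 2163 under 14. Beyond it, higher and lower genes numbered 4027 and 983 with library totals, 9703 and 247 with limma on log2(TPM + 1), 9712 and 236 on log2(TPM + 0.1), 220 and 29 with strain as a fixed block, 821 and 860 in female libraries alone, 1183 and 602 with depth and mitochondrial share as covariates, and 1364 and 756 with endothelial, macrophage and adipocyte scores. With *Fos* as a continuous value 3427 were lower. Immediate early genes higher numbered 53 on both TPM scales, 2 with the fixed block and 7 in female libraries alone, and lower 1 with the ranking divided in 3 or at its median, with male libraries alone or with the 3 left-out libraries put back and 2 with continuous *Fos*. Genes with an interaction of sex and *Fos* group numbered 96 by limma-voom and 2094 with a division at the median. *Fos* levels of the 2 sexes of a strain correlated at 0.207 on the CPM scale and 0.26 without 2 strains. The causes were not tested, except that the fixed block is informed by only 22 of 56 strains.

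By replicate number, no paired analysis was possible because the numbers in the labels name single mice and groups share none, and libraries were paired by strain instead, in the strain blocks. With strain as a random block, limma-voom called 2697 and 1655 genes and 27 immediate early genes. Ranking by *Fos* CPM, leaving out the 3 libraries that stood apart, and a model with lymphocyte, mammary and brown or beige scores were alternatives chosen after seeing the data, and called between 24 and 34 immediate early genes higher. Leaving out the highest library of 10 genes, chosen likewise, ended the calls of *Dio2*, *Krt10*, *S100a9* and *Pde6a*.

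Of 2485 values of named genes, 2074 kept direction and call, 374 lost the call and 37 changed sign. *Pde6a* was at -0.25 with DESeq2, -0.246 without its highest library, -0.12 with voom, -0.63 with a division at the median, -0.067 with the random and -0.20 with the fixed block, -0.077 in females and -0.27 without the 3 libraries. With the fixed block *Elovl3* was at 0.37, *Fabp3* at 0.39, *Mup11* at 0.58, *Ftl1-ps1* at 0.073 (0.091 with DESeq2) and *S100a9* at 0.13. With depth and mitochondrial share *Elovl3* was at 0.64, *Fabp3* at 1.20, *Ucp1* at 0.12, *Pgk1* at 0.009 and *Pdk4* at 0.13. With the brown or beige scores *Elovl3* was at 0.59, *Ucp1* at 0.085, *Acot11* at 0.14 and *Pdk4* at 0.001. *Elovl3* and *Ucp1* are themselves part of that score, so their values there cannot serve as a check. With the macrophage scores *Pdgfra* was at -0.034 and *Csf1r*, itself part of that score, at -0.049, and in males *Sox10* at -0.074. On the TPM scales (pseudocounts 1 and 0.1) *Hspd1* was at 0.022 and 0.022, *Herpud1* at 0.18 and 0.19, *Plin1* at 0.055 and 0.055, *Lipe* at 0.048 and 0.048, *S100a9* at 0.053 and 0.16 and *Krt10* at 0.015 and 0.024.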
